A study of Mus musculus with 4 samples.

Results

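The Notch receptors, ligands and targets described here are 10 genes, namely the receptors Notch1, Notch2, Notch3 and Notch4, the ligands Jag1, Jag2 and Dll4, and the targets Hey1, Heyl and Hes1. They were chosen by symbol from the 32285 genes of the count matrices. Single-cell RNA-sequencing had been done on lung and synovium of TNF-transgenic mice (hTNFtg, here TNF+) and of their littermates without the transgene (TNF-), all females on the C57BL/6 background, 4 months old. TNF+ mice overexpress a human TNF gene, and they serve as a model both of erosive arthritis and of pulmonary hypertension. The human transgene was not part of the mouse reference, so its level was not analysed here. Tissue of several mice was pooled by genotype before dissociation, so each combination of tissue and genotype is 1 library and the 4 libraries are the 4 groups. No group had a replicate, and no p-value was computed. All intervals below are 95% intervals of counting error only, and do not cover the spread between mice or dissociations.

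A Notch receptor sits in the cell membrane and is cut after it binds a Jagged or Delta-like ligand on a neighbouring cell. The freed intracellular domain enters the nucleus, joins the DNA-binding protein RBPJ and switches on genes of the Hes and Hey families, which encode transcriptional repressors. In blood vessels, Notch1, Notch4 and Dll4 are known from endothelium, where they take part in sprouting and arterial identity, and Notch3 is known from smooth muscle cells and pericytes, the mural cells that wrap the vessel.

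The promoters of a receptor of mural cells, of an endothelial receptor and of an endothelial ligand are shown first, because the levels below turn on a mural and an endothelial pattern and these 3 genes carry them. Each runs 5′ to 3′ on the strand of its gene, from 250 bases before to 50 bases after the start that RefSeq gives (GRCm38.p6). Capitals mark matches to GGAA on either strand (written TTCC on the other strand), the core of the sites that ETS transcription factors bind.
Notch3, chr17:32166841-32167140, minus strand: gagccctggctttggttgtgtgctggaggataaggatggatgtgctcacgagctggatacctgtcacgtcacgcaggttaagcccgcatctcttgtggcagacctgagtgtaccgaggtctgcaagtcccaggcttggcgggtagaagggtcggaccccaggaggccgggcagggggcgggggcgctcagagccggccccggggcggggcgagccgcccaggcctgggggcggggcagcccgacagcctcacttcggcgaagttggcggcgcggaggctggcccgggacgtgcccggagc
Notch4, chr17:34564045-34564344, plus strand: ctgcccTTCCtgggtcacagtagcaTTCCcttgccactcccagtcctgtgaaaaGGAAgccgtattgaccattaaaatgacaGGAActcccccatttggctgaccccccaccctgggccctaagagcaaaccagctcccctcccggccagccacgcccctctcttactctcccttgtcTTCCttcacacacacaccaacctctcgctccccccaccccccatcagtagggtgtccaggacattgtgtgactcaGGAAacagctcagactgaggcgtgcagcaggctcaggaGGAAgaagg
Dll4, chr2:119325534-119325833, plus strand: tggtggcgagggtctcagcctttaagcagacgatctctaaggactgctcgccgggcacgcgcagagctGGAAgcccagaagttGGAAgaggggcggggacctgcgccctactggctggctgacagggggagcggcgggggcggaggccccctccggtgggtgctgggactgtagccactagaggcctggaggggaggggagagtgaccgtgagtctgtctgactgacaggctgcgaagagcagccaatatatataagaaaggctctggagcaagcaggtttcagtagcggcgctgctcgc

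Promoter sequence was found for 7 of the 10 members, and Hey1, Heyl and Hes1 were not among them. The window of Notch4 held 7 matches to GGAA, that of Dll4 held 2, and those of Notch3 and Jag2 held 0. Notch1 and Jag1 held 4 each and Notch2 held 3. Over 32851 RefSeq promoters of the same length, 96.0% held at least 1 match and the median was 3. The core that RBPJ binds, searched as TGGGAA on both strands, was in 0 of the 7 windows and in 25.6% of all promoters. These matches describe letters in a window and are not binding sites that anyone measured.

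In the genome (GRCm38, GENCODE genes) the receptors lie at chr2:26457903-26516663 (Notch1, minus strand), chr3:98013527-98150361 (Notch2, plus strand), chr17:32120820-32166852 (Notch3, minus strand) and chr17:34564268-34588503 (Notch4, plus strand). The ligands lie at chr2:137081456-137116644 (Jag1, minus strand), chr12:112907819-112929776 (Jag2, minus strand) and chr2:119325784-119335962 (Dll4, plus strand). The targets lie at chr3:8663359-8667256 (Hey1, minus strand), chr4:123233556-123249875 (Heyl, plus strand) and chr16:30064384-30067796 (Hes1, plus strand). No other gene of the matrices overlaps a member on the same strand. Notch1, Notch3 and Dll4 overlap a gene of the matrices on the opposite strand.

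The 4 libraries held between 4246 and 11243 cell barcodes and between 48454234 and 155989523 unique molecular identifiers (UMIs, counts of distinct RNA molecules). After cells with 200 to 5000 genes and at most 20% mitochondrial UMIs were kept, 6998 TNF- lung, 9174 TNF+ lung, 6200 TNF- synovial and 3152 TNF+ synovial cells remained, with median UMIs per cell from 7137 to 12492. In TNF+ synovium 17.6% of barcodes were over the mitochondrial limit, against 1.41% to 3.78% in the other libraries. The libraries shared 86 barcodes, and no ratio moved outside its counting interval without them. Cells were clustered within each tissue without the Notch genes and named from marker lists, which left 1.76% to 9.39% of cells unnamed. The genotypes did not fill the same clusters, since 11 of 37 lung clusters and 12 of 30 synovial clusters drew over 90% of their cells from 1 library. Endothelial cells were 32.4% of TNF- lung cells (2265) and 1.44% of TNF+ lung cells (132), so levels were compared within lineages. Over all kept lung cells, for example, Dll4 was at 50.4 UMIs per 1000000 in TNF- and 2.19 in TNF+, while within endothelium it was at 190 and 116.

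Levels are given as CPM, the UMIs of a gene per 1000000 UMIs summed over the cells of a lineage in a library, for lineages with at least 50 cells. CPM is not corrected for gene length, so levels are compared between cells and libraries but not between genes. Most members had their highest level in a cell of the vessel wall. In TNF- lung 6 members were highest in endothelium and 3 in mural cells, in TNF+ lung 5 and 3, in TNF- synovium 5 and 4, and in TNF+ synovium 6 and 3. Among lineages with at least 50 cells the exceptions were Notch2 and Hes1. Notch2 was highest in neutrophils of both lungs and in macrophages or monocytes of both synovia. Synovial neutrophils, which fell under this limit of cells, stood higher for Notch2 than those macrophages or monocytes. Hes1 was highest in NK or innate lymphoid cells of TNF+ lung.

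**Figure D1:**
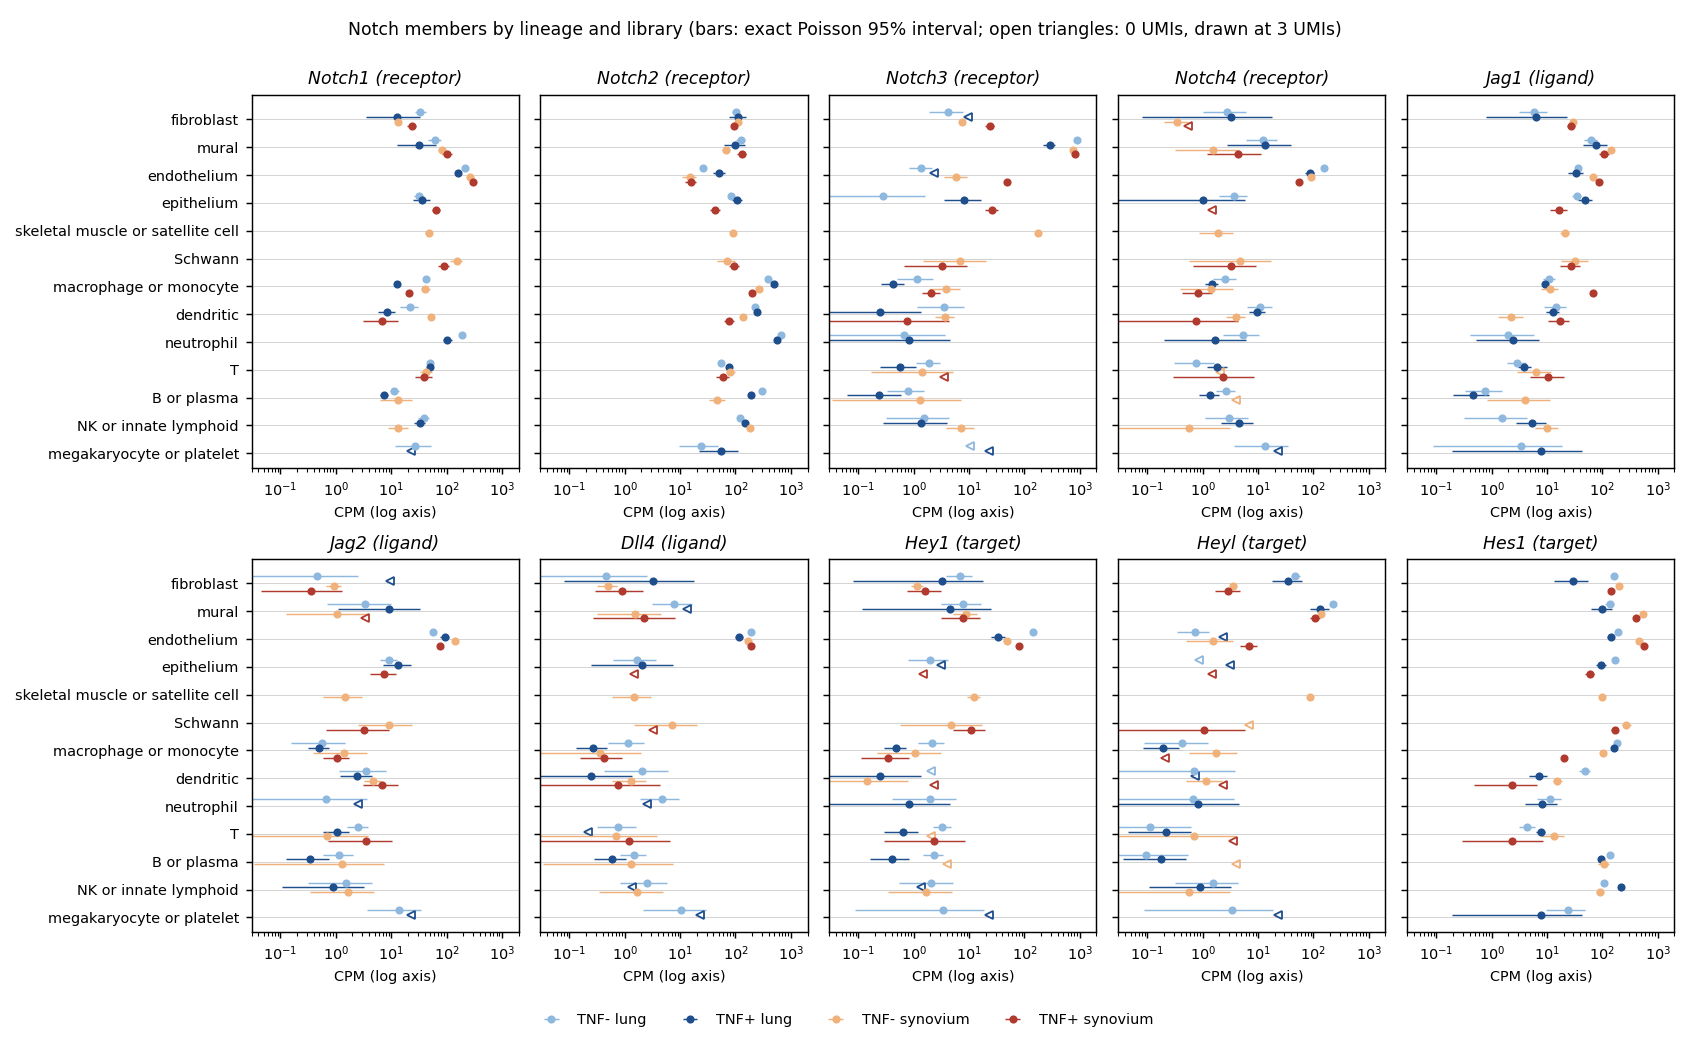
Level of each of the 10 Notch genes (CPM, log axis) in each lineage with at least 50 cells, in the 4 libraries. Bars are 95% counting intervals and open triangles mark lineages with 0 UMIs, drawn at the level of 3 UMIs. Notch3 and Heyl stood highest in mural cells, and Notch4, Jag2, Dll4 and Hey1 stood highest in endothelium, in every library.

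Among the receptors, Notch3 was the mural receptor. Its level in mural cells was 875 CPM (815 to 939) in TNF- lung, 284 CPM (218 to 363) in TNF+ lung, 760 CPM (722 to 800) in TNF- synovium and 817 CPM (760 to 879) in TNF+ synovium. The intervals of both synovial libraries overlapped and TNF+ lung stood apart below them. The next lineage was far lower in 3 libraries, by 214-fold in TNF- lung, 34.4-fold in TNF+ lung and 16.7-fold in TNF+ synovium. In TNF- synovium it was 4.26-fold lower, because the muscle or satellite cell lineage, present there with 558 cells, had 178 CPM (167 to 191). Within that lineage Notch3 was at 194 CPM (182 to 208) in cluster 6, whose leading genes include Pax7 and Myf5 of satellite cells, and at 9.61 CPM in cluster 14, whose leading genes are those of muscle fibres. Mural cells held 91.3%, 58.9%, 52.5% and 60.8% of all Notch3 UMIs of the 4 libraries in the same order.

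Notch4, a receptor known as largely endothelial, was at 152 CPM (146 to 159) in endothelium of TNF- lung, 86.9 CPM (71.7 to 104) in TNF+ lung, 89.7 CPM (79.8 to 101) in TNF- synovium and 54.0 CPM (47.8 to 60.8) in TNF+ synovium. In each tissue the TNF+ interval lay below the TNF- interval. Endothelium was above the next lineage by 11.2, 6.44, 19.3 and 12.2-fold in these libraries and held between 38.3% and 94.6% of the UMIs of Notch4. The lowest of these shares was in TNF+ lung, where few endothelial cells were captured.

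Notch1 was highest in endothelium but was less confined to it. Its endothelial level was 212 CPM (205 to 220) in TNF- lung, 162 CPM (141 to 186) in TNF+ lung, 261 CPM (244 to 279) in TNF- synovium and 307 CPM (292 to 323) in TNF+ synovium. Neutrophils of TNF- lung, with 187 CPM (165 to 210), overlapped the endothelium there. In TNF+ lung neutrophils had 103 CPM (86.0 to 123), below endothelium. Schwann cells, the glia of peripheral nerve, came next in TNF- synovium with 151 CPM (117 to 193), and mural cells in TNF+ synovium with 103 CPM (83.0 to 126). T cells, in which Notch1 is known for its role in thymic development, had between 38.9 and 51.2 CPM in the 4 libraries.

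Notch2 was highest in leukocytes and was present in most other lineages. Neutrophils had 668 CPM (628 to 711) in TNF- lung and 553 CPM (512 to 596) in TNF+ lung. Synovial neutrophils, only 26 TNF- and 23 TNF+ cells and so not ranked, had 836 CPM (719 to 966) and 486 CPM (365 to 635). The 19 NK or innate lymphoid cells of TNF+ synovium, also not ranked, had 290 CPM (200 to 407). Macrophages or monocytes had 385 CPM (370 to 399) and 492 CPM (485 to 498) in TNF- and TNF+ lung, and 269 CPM (251 to 289) and 202 CPM (194 to 209) in TNF- and TNF+ synovium. The genotypes thus stood in opposite order in the macrophages of the 2 tissues. Notch2 is needed for marginal zone B cells, and lung B or plasma cells had 303 CPM (292 to 314) in TNF- and 194 CPM (188 to 201) in TNF+. Fibroblasts had 101 CPM, 109 CPM, 111 CPM and 93.3 CPM and mural cells 123 CPM, 99.0 CPM, 67.4 CPM and 131 CPM in the 4 libraries. The many fibroblasts of TNF- synovium held 63.6% of the Notch2 UMIs there. Endothelium was low, with 25.9 CPM, 51.1 CPM, 14.9 CPM and 15.5 CPM.

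Among the ligands, Dll4 was the most confined to endothelium. Its level there was 190 CPM (183 to 197) in TNF- lung, 116 CPM (98.2 to 136) in TNF+ lung, 169 CPM (156 to 184) in TNF- synovium and 188 CPM (176 to 200) in TNF+ synovium. TNF+ lung stood below the other libraries, and the synovial intervals overlapped. The next lineage was lower by 18.7, 36.0, 24.2 and 85.0-fold, and endothelium held 97.6%, 82.2%, 91.2% and 98.2% of Dll4 UMIs.

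Jag2 had its highest level in the same cells, with 56.4 CPM (52.6 to 60.5) in endothelium of TNF- lung, 93.0 CPM (77.3 to 111) in TNF+ lung, 143 CPM (130 to 156) in TNF- synovium and 76.5 CPM (69.0 to 84.5) in TNF+ synovium. The order of the genotypes was opposite in the 2 tissues, and within each tissue the intervals did not overlap.

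Jag1 was spread over several lineages. In mural cells it was at 61.6 CPM (46.4 to 80.2) in TNF- lung, 76.5 CPM (44.6 to 122) in TNF+ lung, 141 CPM (124 to 158) in TNF- synovium and 106 CPM (86.0 to 130) in TNF+ synovium. In endothelium it was at 35.9 CPM, 33.6 CPM, 67.3 CPM and 87.2 CPM. In TNF+ lung the epithelium (48.4 CPM, 35.6 to 64.4) and in TNF+ synovium the endothelium (79.2 to 95.8) overlapped the mural interval, so mural cells led clearly only in the TNF- libraries. Macrophages or monocytes of TNF+ synovium stood at 68.1 CPM (63.9 to 72.5), against 11.2 CPM (7.66 to 15.8) in TNF- synovium and 10.9 CPM and 9.09 CPM in the lungs.

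Among the targets, Hey1 followed endothelium, with 145 CPM (139 to 151) in TNF- lung, 33.6 CPM (24.4 to 45.0) in TNF+ lung, 47.9 CPM (40.7 to 56.0) in TNF- synovium and 79.9 CPM (72.2 to 88.1) in TNF+ synovium. Hey1 was lower in TNF+ than TNF- in the lung and higher in the synovium, with no overlap of intervals in either tissue. In TNF+ lung its endothelial interval overlapped that of mural cells, which rested on 1 UMI.

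Heyl followed mural cells, with 226 CPM (196 to 260) in TNF- lung, 131 CPM (87.4 to 187) in TNF+ lung, 135 CPM (119 to 152) in TNF- synovium and 107 CPM (87.0 to 131) in TNF+ synovium. Lung fibroblasts had 47.2 CPM and 35.4 CPM, against 3.58 CPM and 2.89 CPM in synovial fibroblasts. As with Notch3, the muscle or satellite cell lineage of TNF- synovium came next, with 85.7 CPM (77.7 to 94.4). It held 46.5% of the Heyl UMIs of that library.

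Hes1, a repressor that is switched on by Notch and also by other signals, was the most widely spread target. In synovium it was high in endothelium, with 467 CPM (444 to 491) in TNF- and 562 CPM (541 to 583) in TNF+, and in mural cells, with 549 CPM (517 to 583) and 413 CPM (372 to 457). In lung the endothelium had 188 CPM (180 to 195) and 141 CPM (121 to 163), and the macrophages or monocytes of TNF- lung, with 184 CPM (174 to 195), overlapped it. Schwann cells had 273 CPM and 167 CPM and synovial fibroblasts 201 CPM and 143 CPM in TNF- and TNF+. T cells stayed between 2.36 and 13.2 CPM in the 4 libraries.

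Counts in T cells served as a background for the vascular members, since free RNA from broken cells gives UMIs in cells that do not express a gene. For this each cell was thinned to 1000 UMIs, leaving out cells below that depth. Dll4 was then detected in 15.5% (14.0 to 17.2) of 2024 TNF- lung endothelial cells, 9.38% of 128 TNF+ lung, 15% of 653 TNF- synovial and 14.8% of 546 TNF+ synovial ones, and in at most 0.311% of T cells of any library. Notch3 was detected in 53.5% of 101 TNF- lung mural cells, 10.7% (2.27 to 28.2) of 28 TNF+ lung, 55.1% of 274 TNF- synovial and 54.9% of 122 TNF+ synovial ones, and in at most 0.207% of T cells. Both genes were thus well above the background of their library wherever they led. The synovial genotypes had nearly the same share of Notch3-positive mural cells, while the lung share of TNF+ rested on 28 cells. Unthinned, the mural shares were 72.7%, 17.2%, 88.0% and 88.4%. Median depths before thinning were 6020.5, 651, 5995 and 7182 UMIs in mural cells and 9249, 9219, 10161 and 6195.5 in T cells. Notch1 was not confined in this way, with 18.6%, 14.8%, 22.1% and 24.0% of thinned endothelial cells and 1.59% to 4.27% of T cells, in which it is known to be expressed.

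**Figure D2:**
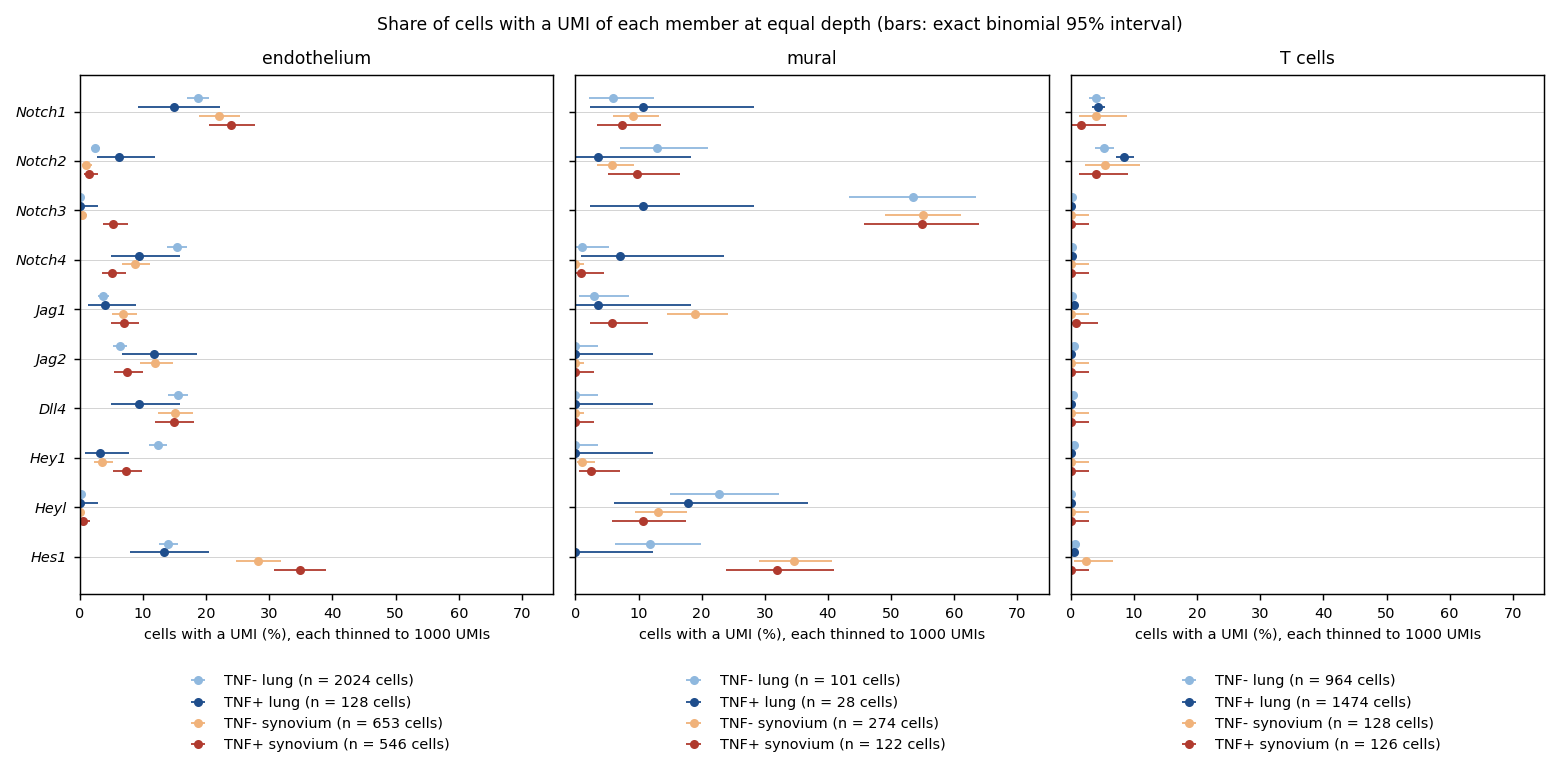
Share of cells with at least 1 UMI (percent) after each cell was thinned to 1000 UMIs, for endothelium, mural cells and T cells of the 4 libraries, with 95% exact binomial intervals. Dll4 reached 9.38% to 15.5% of endothelial cells and at most 0.311% of T cells, and Notch3 reached 53.5% to 55.1% of mural cells in 3 libraries and 10.7% in TNF+ lung.

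The genotype was compared within each lineage as the ratio of the TNF+ to the TNF- CPM. A ratio was formed for a gene with at least 20 UMIs over both libraries, and a gene counted as different where the ratio was at least 2-fold either way, with no test behind it. In the synovium 12 of 45 ratios of members in 7 lineages passed, or 26.7%, against 24.4% of 76082 ratios over all genes. In the lung 15 of 56 ratios in 10 lineages passed, or 26.8%, against 17.0% of 114247. The median log2 ratio over all genes lay between -0.30 and 0.08 in these comparisons, with synovial fibroblasts and mural cells at the low end.

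In synovial mural cells 0 of the 7 members with enough UMIs passed 2-fold, where 25.3% of all genes did. The log2 ratio was 0.10 (-0.03 to 0.23) for Notch3, 0.30 (-0.08 to 0.68) for Notch1, -0.40 (-0.76 to -0.06) for Jag1, -0.33 (-0.68 to 0.01) for Heyl and -0.41 (-0.59 to -0.24) for Hes1. Notch2 was nearest to 2-fold, with 67.4 CPM in TNF- and 131 CPM in TNF+ and a log2 ratio of 0.95 (0.58 to 1.32).

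Synovial mural cells fell into a pericyte cluster (cluster 10, 233 TNF- and 41 TNF+ cells) and a smooth muscle cluster (cluster 18, 58 and 88 cells), so different clusters held most of the lineage in the 2 genotypes. In the smooth muscle cluster Notch3 was at 725 CPM (TNF-) and 892 CPM (TNF+), with a log2 ratio of 0.30 (0.12 to 0.47). Notch1 there was at 64.5 CPM and 115 CPM, a log2 ratio of 0.83 (0.27 to 1.40), and Heyl at 75.3 CPM and 119 CPM, a log2 ratio of 0.66 (0.13 to 1.2). In pericytes the order was the other way for both Notch3, at 778 CPM (TNF-) and 549 CPM (TNF+), and Heyl, at 165 CPM and 66.1 CPM, although the TNF+ values come from 41 cells. Notch2 was at 120 CPM and 156 CPM in smooth muscle cells and at 40.7 CPM in pericytes of either genotype.

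In lung mural cells Notch3 had 781 UMIs and 875 CPM in TNF- and 63 UMIs and 284 CPM in TNF+. Its log2 ratio was -1.63 (-2.02 to -1.25), and Notch3 was the 1 of 6 members past 2-fold, where 20.8% of all genes were. Notch1 fell just short of 2-fold, with 61.6 CPM on 55 UMIs in TNF- and 31.5 CPM on 7 UMIs in TNF+. Heyl, with 226 CPM and 131 CPM, had a log2 ratio of -0.79 (-1.41 to -0.23), and that of Jag1 was 0.31 (-0.57 to 1.12). The 122 TNF+ cells had a median of 651 UMIs against 6020.5 for the 128 TNF- cells. The summed level of all 20 mural markers, each of which had UMIs in both libraries, was 29417 CPM in TNF- and 15053 CPM in TNF+. The summed level of the 24 macrophage markers was 1266 CPM in TNF- (18 with UMIs) and 6512 CPM in TNF+ (23 with UMIs). Their part in the Notch3 ratio was not tested. The Notch3 ratio did not pass 2-fold with no filter on cells (-0.92) or at Leiden resolution 0.4 (-0.62). No ratio was formed with cells under 1000 UMIs left out, since 28 TNF+ cells remained, under the minimum of 50.

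In endothelium the members differed between tissues. Of 10 members with enough UMIs in synovial endothelium Notch3 and Heyl passed 2-fold, both higher in TNF+, where 18.2% of all genes passed. Of 8 members in lung endothelium Hey1 passed, lower in TNF+, where 18.0% of all genes passed. Hey1 fell on opposite sides, with a log2 ratio of -2.11 (-2.57 to -1.68) in lung and 0.74 (0.47 to 1.01) in synovium. Jag2 did so too, with 0.72 (0.43 to 1.0) in lung and -0.90 (-1.10 to -0.70) in synovium. Notch4 was lower in TNF+ in both, at -0.81 (-1.09 to -0.54) and -0.73 (-0.97 to -0.49), while Dll4 was lower in lung, at -0.71 (-0.96 to -0.48), and near equal in synovium, at 0.15 with an interval up to 0.30. Notch1 (-0.39 in lung and 0.23 in synovium) and Hes1 (-0.41 and 0.27) also stood on opposite sides, by less than 2-fold. Notch2 was higher in TNF+ lung endothelium, at 0.98 (0.58 to 1.36), and not separated in synovium, at 0.06 (-0.47 to 0.61). In these lung cells the summed level of all 20 endothelial markers was 19124 CPM in TNF- and 12083 CPM in TNF+, with UMIs of each in both libraries. The 24 macrophage markers summed to 487 CPM (23 with UMIs, Cd163 at 0) and 1476 CPM (24 with UMIs), and the part of these shifts in the lung ratios was not tested.

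**Figure D3:**
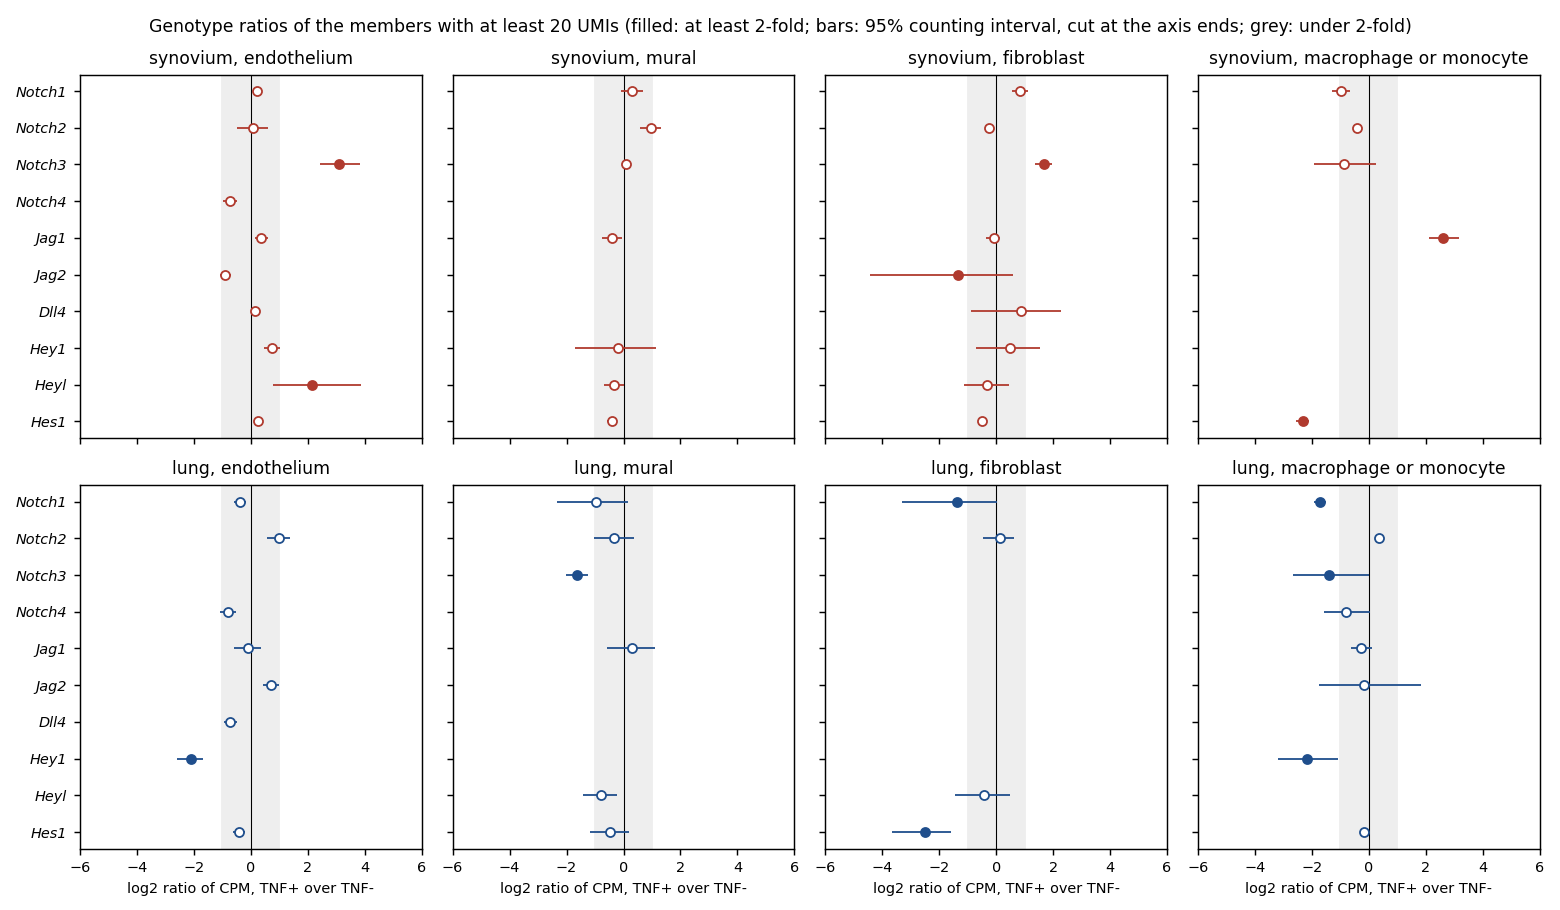
Log2 ratio of TNF+ to TNF- CPM for the Notch genes with at least 20 UMIs, in endothelium, mural cells, fibroblasts and macrophages or monocytes of synovium and lung. Bars are 95% counting intervals (those past an axis end are drawn to it). Filled points are at least 2-fold, open points are not, and the grey band marks ratios under 2-fold. Hey1 in endothelium was at -2.11 in lung and 0.74 in synovium, and Jag1 in synovial macrophages or monocytes was at 2.60.

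The lung endothelium of the 2 genotypes came from different clusters. Most TNF- cells (1407) were in cluster 2, with markers of general capillary cells, where Hey1 was at 185 CPM (176 to 193) and Dll4 at 218 CPM (209 to 227). Aerocytes, the large gas-exchange capillary cells, were in cluster 14 (258 TNF- cells), with Hey1 at 7.58 CPM (4.25 to 12.5) and Dll4 at 144 CPM. Venous cells in cluster 28 (71 TNF- cells) had Hey1 at 44.3 CPM and Dll4 at 19.2 CPM (10.2 to 32.8). Hey1 and Dll4 thus varied among lung endothelial cells of a single library by as much as between genotypes. Of the TNF+ cells 89 were in cluster 26, which held 2 TNF- cells, where Hey1 was at 41.3 CPM (28.9 to 57.2), Dll4 at 132 CPM, Jag2 at 114 CPM, Notch4 at 103 CPM and Notch1 at 162 CPM. Only 5 TNF+ cells were in cluster 2 and 25 in cluster 14, so the genotypes could not be compared within a lung endothelial cluster, and genotype and cluster cannot be told apart. With an unnamed shallow cluster that carried endothelial markers (16 TNF- and 278 TNF+ cells, median 650 UMIs) counted as endothelium, the log2 ratio of Hey1 was -2.27.

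Synovial endothelium held a cluster of mixed markers. Cluster 25 had 51 TNF+ cells and 1 TNF- cell, carried both endothelial and mural markers, and had more of the mural than of the endothelial list among its top 10 genes, so the synovial comparison is also given by cluster. In cluster 2, general capillary cells (527 TNF- and 278 TNF+), Notch1 was at 269 CPM (TNF-) and 280 CPM (TNF+), Dll4 at 176 CPM and 184 CPM, and Jag1 at 39.1 CPM and 38.8 CPM. These 3 had intervals that spanned 0, with log2 ratios of 0.05 (-0.10 to 0.21), 0.06 (-0.12 to 0.25) and -0.01 (-0.42 to 0.40). In the same cells Jag2 was at 126 CPM and 57.1 CPM, a log2 ratio of -1.14 (-1.43 to -0.86), Notch4 at 90.5 CPM and 54.5 CPM, a log2 ratio of -0.73 (-1.04 to -0.43), and Hey1 at 35.6 CPM and 63.8 CPM, a log2 ratio of 0.84 (0.47 to 1.22).

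In cluster 12, arterial cells (86 TNF- and 157 TNF+), the ligand Jag1 was high in both genotypes, at 236 CPM and 209 CPM, as was Jag2, at 268 CPM and 148 CPM. Notch1 was at 232 CPM (TNF-) and 399 CPM (TNF+), a log2 ratio of 0.78 (0.49 to 1.09), and Dll4 at 145 CPM and 230 CPM, a log2 ratio of 0.66 (0.29 to 1.06). Hey1 there was at 119 CPM and 135 CPM, a log2 ratio of 0.19 (-0.25 to 0.64). Notch4 was at 104 CPM and 62.7 CPM, a log2 ratio of -0.74 (-1.26 to -0.20), and the log2 ratio of Jag2 was -0.86 (-1.19 to -0.53). Jag2 and Notch4 were lower in TNF+ in both clusters, while Notch1 and Dll4 had intervals above 0 in arterial cells and across 0 in capillary cells. Whether the 2 clusters differ in these ratios was not tested. Leaving out cluster 25 gave log2 ratios of 0.23 for Notch1, -0.74 for Notch4, 0.43 for Jag1, -0.81 for Jag2, 0.15 for Dll4, 0.81 for Hey1 and 0.18 for Hes1.

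**Figure D4:**
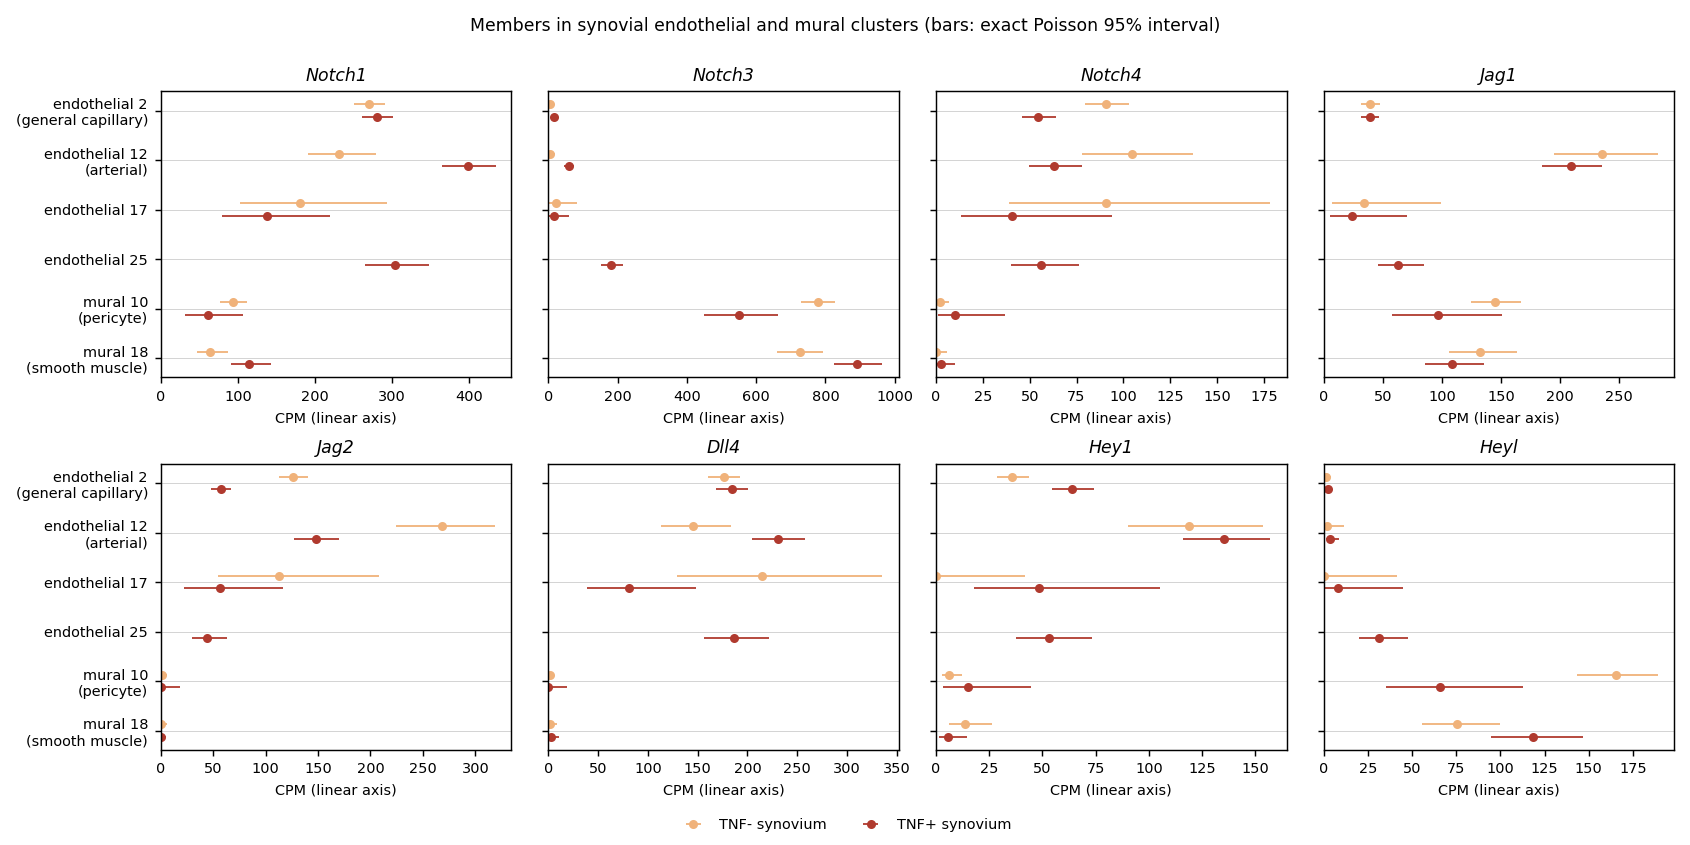
Level of 8 Notch genes (CPM, linear axis) in synovial endothelial clusters 2, 12, 17 and 25 and mural clusters 10 and 18, TNF- and TNF+, with 95% counting intervals. Jag1 and Jag2 stood highest in the arterial cluster 12, at 209 to 236 CPM and 148 to 268 CPM, and Notch3 was at 182 CPM in cluster 25, between the other endothelial clusters and the mural clusters.

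Notch3 in synovial endothelium had 19 UMIs and 5.76 CPM in TNF- and 247 UMIs and 49.1 CPM in TNF+, a log2 ratio of 3.09 (2.42 to 3.85). Without cluster 25, where it was at 182 CPM (152 to 217), the log2 ratio was 2.60. It was at 3.83 CPM and 14.9 CPM in the capillary cluster 2 and at 6.15 CPM and 58.9 CPM in the arterial cluster 12. In cluster 17 (72 TNF- and 82 TNF+ cells) it was at 22.6 CPM and 16.1 CPM on 2 UMIs each, so the higher level in TNF+ was not seen in every cluster. Cells with a Notch3 UMI were 14 of 704 TNF- cells (1.99%, 1.09 to 3.31) and 94 of 594 TNF+ cells (15.8%, 13 to 19.0). Of these TNF+ cells 41 were in cluster 25, 27 in cluster 2 and 23 in cluster 12.

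Mural genes moved with Notch3 in these cells. Over all synovial endothelium the summed level of the 20 mural markers was 371 CPM in TNF- (18 with UMIs, Cnn1 and Actg2 at 0) and 2169 CPM in TNF+ (19 with UMIs, Actg2 at 0). In TNF+ it was 6188 CPM in the cells with a Notch3 UMI and 929 CPM in the others, and in the arterial cluster 6150 CPM and 367 CPM. Of the 94 TNF+ cells with a Notch3 UMI 2 had no UMI of a mural marker, as did 126 of the 500 others. The cells with a Notch3 UMI were also deeper, with a median of 13021.5 UMIs against 6675. Their endothelial marker sum was 7474 CPM against 9072 CPM in the others. Heyl went the same way, with 5 UMIs in TNF- and 34 in TNF+, but fell under 20 UMIs without cluster 25. The part of mural RNA or of mixed barcodes in the Notch3 ratio was not tested. Thinned to 1000 UMIs, 0.306% of TNF- and 5.31% of TNF+ synovial endothelial cells had a Notch3 UMI, and 0 of 128 and 0 of 126 T cells did. The exact 95% intervals of these shares of 0 reach up to 2.84% and 2.89%, and 3 cells would be 2.34% and 2.38%. At the same depth 1.13% of 177 epithelial cells and 1.98% of 404 fibroblasts of TNF+ synovium had a Notch3 UMI.

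Among synovial fibroblasts Notch3 and Jag2 passed 2-fold, that is 2 of 9 members where 31.0% of all genes did. Notch3 had 372 UMIs and 7.39 CPM in TNF- and 130 UMIs and 23.5 CPM in TNF+, a log2 ratio of 1.67 (1.37 to 1.96). Jag2 had 46 UMIs and 2 UMIs, and its log2 ratio of -1.34 (-4.43 to 0.60) has an interval that spans 0. Notch1 was higher in TNF+, at 0.85 (0.57 to 1.13), and Hes1 lower, at -0.49 (-0.60 to -0.39). The summed mural markers in these fibroblasts were 268 CPM in TNF- (all 20 with UMIs) and 869 CPM in TNF+ (19 with UMIs), and their part in the Notch3 ratio was not tested.

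Different fibroblast clusters held the 2 genotypes, since clusters 0, 1 and 3 held 1253, 1004 and 752 of the 3329 TNF- cells and cluster 15 held 162 of the 412 TNF+ cells. Cluster 15 had no TNF- cell and is led by Saa3, Mmp3 and Mmp13. Notch3 was at 34.0 CPM (27.7 to 41.3) in cluster 15. In cluster 1, present in both genotypes, it was at 13.6 CPM and 19.4 CPM, with Hes1 at 207 CPM in either. It was at 5.50 CPM and 5.39 CPM in cluster 0 and at 7.84 CPM and 3.95 CPM in cluster 9, so the higher level in TNF+ was not seen in every cluster. Clusters 9 and 29, the fibroblast clusters that drew at most 90% of their cells from a single library, gave together a log2 ratio of -0.87, and under the stricter filter on cells that of the lineage was 0.10. The sublining or adventitial cluster 3 (752 TNF- cells) was the high point for Jag1 (58.0 CPM), Notch2 (193 CPM) and Hes1 (295 CPM) among the TNF- fibroblast clusters of over 50 cells.

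In lung fibroblasts 2 of 4 members passed, where 21.2% of all genes did. Hes1 had 363 UMIs and 165 CPM in TNF- and 9 UMIs and 28.9 CPM in TNF+, a log2 ratio of -2.51 (-3.65 to -1.57). Notch1 had 74 UMIs and 4 UMIs, a log2 ratio of -1.39 (-3.30 to 0.03). The TNF+ values rest on 86 cells, and the summed fibroblast markers were 25716 CPM in TNF- and 12416 CPM in TNF+. Notch2, at 0.12 (-0.45 to 0.64), and Heyl, at -0.42 (-1.46 to 0.48), had intervals that spanned 0.

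Macrophages or monocytes of the synovium had a higher level of the ligand Jag1 and a lower level of Hes1 in TNF+, and these 2 of 5 members passed where 28.6% of all genes did. Jag1 had 32 UMIs and 11.2 CPM in TNF- and 980 UMIs and 68.1 CPM in TNF+, a log2 ratio of 2.60 (2.10 to 3.16). Hes1 had 294 UMIs and 103 CPM in TNF- and 296 UMIs and 20.6 CPM in TNF+, a log2 ratio of -2.32 (-2.56 to -2.09). Most TNF+ cells (732 of 995) were in cluster 4, with 8 TNF- cells, and most TNF- cells (138 of 220) in cluster 8, with 224 TNF+ cells.

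The 2 genes parted ways inside cluster 8. Jag1 was at 6.82 CPM (TNF-) and 54.3 CPM (TNF+) there, a log2 ratio of 2.99 (2.12 to 4.00), as large as over the lineage. Hes1 was at 111 CPM and 130 CPM, a log2 ratio of 0.22 (-0.06 to 0.51), and its low level in TNF+ was that of cluster 4, at 5.32 CPM. With clusters of 1 library left out the log2 ratio of Hes1 over the lineage was -0.02. In cluster 21, led by C1q genes (74 TNF- and 39 TNF+ cells), Jag1 was at 17.6 CPM and 147 CPM. Jag1 was thus higher in TNF+ in both clusters that held over 30 cells of each genotype. Thinned to 1000 UMIs, 1.37% of TNF- and 6.45% of TNF+ cells had a Jag1 UMI (9.55% and 45.1% unthinned), and in T cells 0 of 128 and 0.794% of 126 did. For Hes1 the thinned shares were 9.59% and 2.32% (40.5% and 13.1% unthinned).

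Neither Jag1 nor Hes1 passed 2-fold in lung macrophages or monocytes, although the interval of Hes1 lay below 0. Jag1 was at 10.9 CPM (TNF-) and 9.09 CPM (TNF+) and Hes1 at 184 CPM and 162 CPM, with log2 ratios of -0.27 (-0.62 to 0.11) and -0.19 (-0.27 to -0.10). Notch1, Notch3 and Hey1 passed 2-fold and were lower in TNF+, that is 3 of 8 members where 19.0% of all genes passed. Notch1 had 296 UMIs and 42.0 CPM in TNF- and 537 UMIs and 12.8 CPM in TNF+, a log2 ratio of -1.71 (-1.92 to -1.50). Notch3 (8 and 18 UMIs) and Hey1 (15 and 20 UMIs) were under 3 CPM in both libraries. Of the TNF+ cells 2590 were in cluster 1, where Notch1 was at 4.93 CPM, Notch2 at 592 CPM and Hes1 at 233 CPM. In cluster 6, with 139 TNF- and 586 TNF+ cells, Notch1 was at 46.0 CPM and 20.2 CPM, while in cluster 12, with 63 and 241 cells, it was at 39.3 CPM and 42.3 CPM. The Notch1 ratio of the lineage did not pass with each library clustered by itself (-0.47) or with clusters of 1 library left out (-0.71).

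In synovial dendritic cells 5 of 7 members passed, where 23.2% of all genes did, and in those of the lung 2 of 5 passed, where 11.6% did. Notch1 was lower in TNF+ in both, with 51.7 CPM and 6.88 CPM in synovium (363 and 9 UMIs, a log2 ratio of -2.91, -4.05 to -1.97) and 21.4 CPM and 8.29 CPM in lung (-1.37, -2.12 to -0.62). Hes1 was lower in both as well, with 15.4 CPM and 2.29 CPM in synovium (108 and 3 UMIs, -2.75, -5.05 to -1.16) and 47.7 CPM and 7.07 CPM in lung (69 and 29 UMIs, -2.75, -3.43 to -2.11). Jag1 was higher in synovial TNF+ dendritic cells, with 2.28 CPM and 16.8 CPM (16 and 22 UMIs, 2.88, 1.89 to 3.91). Notch3 and Notch4 passed on 26 and 28 UMIs in TNF- and 1 UMI each in TNF+, and the intervals of their log2 ratios (-2.28, -7.63 to 0.33, and -2.38, -7.74 to 0.21) spanned 0. Cluster 5 was the only dendritic cluster of the synovium. In the lung cluster 11, of conventional dendritic genes (78 TNF- and 226 TNF+ cells), Hes1 was at 52.4 CPM and 7.37 CPM. The Hes1 ratio of synovial dendritic cells was -0.39 with no filter on cells, and the Notch1 ratio of lung dendritic cells -0.30 with high Scrublet doublet scores removed, so neither passed there.

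Lung T cells had 4 of 8 members past 2-fold, where 14.2% of all genes were, but these 4 (Notch3, Notch4, Jag2 and Hey1) were at or under 3.29 CPM in both libraries. Lung B or plasma cells had 2 of 6, where 18.4% were, and both (Dll4 and Hey1) were at or under 2.32 CPM. In T cells Notch4, also a gene of the vessel wall, was higher in TNF+, with a log2 ratio of 1.26, and the other 3 were lower. Each of the lower ones is a gene of the vessel wall, and TNF- lung held far more endothelial cells than TNF+ lung. Summed endothelial markers in lung T cells were 492 CPM in TNF- and 280 CPM in TNF+ (all 20 with UMIs in both). Whether free RNA moved these ratios was not tested. Lung neutrophils had 0 of 3 (17.7% of all genes passed), with Notch1 at -0.85 (-1.17 to -0.54). In synovial T cells 1 of 3 passed (14.0% of all genes), namely Hes1 with 19 UMIs in TNF- and 2 in TNF+, a log2 ratio of -2.48 (-5.63 to -0.43).

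Hes1 in NK or innate lymphoid cells of the lung was at 107 CPM (92.9 to 122) in TNF- and 213 CPM (194 to 233) in TNF+, a log2 ratio of 1.0 (0.76 to 1.24) just short of 2-fold before rounding. Of 3 members there 0 passed, where 10.9% of all genes did. The higher level was not that of NK cells, since cluster 9, led by Gzma and Ncr1 (197 TNF- and 136 TNF+ cells) had 101 CPM and 73.5 CPM. Cluster 24, led by Il1rl1, Arg1 and Calca (30 TNF- and 89 TNF+ cells), had 140 CPM and 396 CPM. Lung epithelium had 0 of 5 members past 2-fold (18.7% of all genes), with Hes1 lower in TNF+ at -0.80 (-1.13 to -0.49). Schwann cells of the synovium had 0 of 4 (25.0% of all genes), with Notch1 at -0.78 (-1.26 to -0.29) and Hes1 at -0.71 (-1.06 to -0.35).

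Across the 17 lineage comparisons Hes1 was lower in TNF+ in 14, with the interval below 0 in 12, and higher in 3, which were synovial endothelium, lung T cells and lung NK or innate lymphoid cells. Notch1 was lower in 13, with the interval below 0 in 8, and was higher in 4, of which synovial endothelium and synovial fibroblasts had an interval above 0. The median ratio over all genes was itself below 0 in 12 of these 17 comparisons, 6 of 7 in synovium and 6 of 10 in lung. Notch2 went either way, lower in 7 and higher in 10. The comparisons of a tissue share both libraries, so these counts are not independent.

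Immediate-early genes, which tissue dissociation can switch on, also differed between the synovial libraries. Their summed level (14 genes) was 9091 CPM in TNF- and 4332 CPM in TNF+ synovial macrophages or monocytes, 8693 CPM and 3207 CPM in dendritic cells, 7012 CPM and 3593 CPM in T cells, and 19029 CPM and 9446 CPM in fibroblasts. It was lower in TNF+ in each lineage where synovial Hes1 was lower, and also in synovial endothelium (19853 CPM and 14312 CPM), where Hes1 was higher. In the lung it was lower in TNF+ in each lineage with member ratios except fibroblasts, which had 2422 CPM and 3014 CPM. Dendritic cells had 4243 CPM and 3640 CPM, and macrophages or monocytes 4702 CPM and 3640 CPM. Lung T cells had 3455 CPM and 3346 CPM and NK or innate lymphoid cells 4156 CPM and 3724 CPM. In both of these Hes1 was higher in TNF+. The part of dissociation in the Hes1 values was not tested.

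The other 52 genes of the pathway were taken from 7 lists of ligands, targets, proteases, glycosyltransferases, ubiquitin ligases, nuclear partners and repressors. Synovial macrophages or monocytes had the most at least 2-fold lower in TNF+, 10 of 42 with 1 higher, beside 20.1% lower and 8.46% higher of all genes. The share lower was thus near that of all genes. The 10 included 4 of 7 genes of the nuclear complex, a short list for which no test was made. The genotypes of this lineage lay mostly in different clusters, and these ratios are not given by cluster. Named members of the pathway were Nrarp, a feedback inhibitor that Notch switches on (15.8 CPM and 1.53 CPM, log2 ratio -3.37), Dtx3l (25.2 CPM and 4.10 CPM, -2.62), Maml2, a coactivator of the Notch complex (110 CPM and 24.2 CPM, -2.18), and Kat2b, an acetyltransferase (79.8 CPM and 23.9 CPM, -1.74). The median log2 ratio of the 42 was -0.39, against -0.23 over all genes.

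Nrarp stood on different sides in the vessel wall. In synovial mural cells it was at 102 CPM (TNF-) and 375 CPM (TNF+), a log2 ratio of 1.88 (1.63 to 2.14), while Notch3, Heyl and Hes1 in these cells differed by less than 2-fold. In lung mural cells it was at 94.1 CPM and 31.5 CPM on 84 and 7 UMIs, a log2 ratio of -1.58 (-2.94 to -0.47). In lung endothelium it was at 33.8 CPM and 14.5 CPM on 470 and 19 UMIs, a log2 ratio of -1.22 (-1.97 to -0.56). The genotypes lay mostly in different clusters of synovial mural cells and of lung endothelium, and the Nrarp ratios are not given by cluster. Other named genes of synovial mural cells were Dlk1 (31.6 CPM and 8.85 CPM, -1.84), Neurl1b (-1.25) and Sel1l (-1.18), and of lung mural cells Furin, a protease that cuts the receptor precursor (60.5 CPM and 27 CPM, -1.16, with an interval of -2.67 to 0.05 that spans 0). In all, 3 of 39 were higher and 5 lower in synovial mural cells, and 1 of 38 higher and 5 lower in lung mural cells. Over all genes these shares were 5.10% and 20.2% in synovium and 8.53% and 12.3% in lung.

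In synovial endothelium 2 of 43 other pathway genes were higher and 2 lower, beside 8.72% and 9.48% of all genes. The named ones were Psen2, a subunit of the gamma-secretase that frees the intracellular domain (16.1 CPM and 41.7 CPM, 1.38), Neurl1b, a ligase for Notch ligands (24.2 CPM and 10.7 CPM, -1.18), and Lfng, a glycosyltransferase of the receptor (16.4 CPM and 8.14 CPM, -1.01). In lung endothelium 3 of 45 were higher and 2 lower, beside 9.38% and 8.60%. Hey2, a relative of Hey1, was at 3.23 CPM (TNF-) and 13 CPM (TNF+) on 45 and 17 UMIs (log2 ratio 2.0) and so stood opposite to Hey1. Dtx1, another target, was at 3.81 CPM and 12.2 CPM on 53 and 16 UMIs (1.68). Genotype and cluster cannot be told apart in these lung cells. Aph1b was at 7.84 CPM and 1.53 CPM on 109 and 2 UMIs (-2.36).

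In synovial fibroblasts 2 of 48 were higher and 7 lower, beside 8.29% and 22.7% of all genes, with Dtx4 at 24.9 CPM and 6.15 CPM (-2.02), Neurl1b (-1.49) and Dner at 0.775 CPM and 4.70 CPM (2.60) named. Mfng was named too, on 49 and 1 UMIs, and its log2 ratio of -2.43 (-7.76 to 0.12) has an interval that spans 0. Lung fibroblasts had 1 of 38 higher and 1 lower, beside 10.1% and 11.1% of all genes, the lower one being Aph1c on 49 and 3 UMIs (-1.21, -3.53 to 0.43), with an interval that spanned 0. Lung macrophages or monocytes had 0 of 45 higher and 5 lower, beside 4.91% and 14.1%, with Egfl7 at 13.9 CPM and 4.85 CPM (-1.52), Neurl1b (-2.47), Neurl1a (-1.92) and Hes7 (-1.49). In the other lineages of the synovium 0 of 32 were higher and 5 lower in Schwann cells (11.8% and 13.3% of all genes), 2 of 40 and 7 in dendritic cells (6.62% and 16.6%), and 2 of 34 and 3 in T cells (5.86% and 8.14%). In the other lineages of the lung the counts were 6 of 40 and 0 in epithelium (11.5% and 7.17% of all genes), 3 of 40 and 4 in dendritic cells (5.09% and 6.55%), and 1 of 33 and 2 in neutrophils (5.91% and 11.8%). They were 1 of 43 and 4 in lung T cells (7.02% and 7.16%), 1 of 45 and 5 in B or plasma cells (6.61% and 11.8%), and 2 of 39 and 2 in NK or innate lymphoid cells (5.73% and 5.17%).

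The genes most like each member were sought by the Pearson correlation of log2(CPM + 1) over the 40 profiles of a lineage in a library, among 16109 genes with at least 200 UMIs. The profiles share libraries and depth, so the correlations are descriptions. Dll4 was most like Robo4 (0.95), Grrp1 (0.95) and Adgrl4 (0.94), and Notch4 most like Tie1 (0.88), Kif26a (0.86) and Gipc3 (0.85). Robo4, Adgrl4 and Tie1 are in the endothelial marker list. Notch3 was most like Slc2a4 (0.92), Lmod1 (0.90) and Rbm24 (0.90), and Heyl most like Speg (0.94), Jph2 (0.93) and Des (0.93). These include genes of the contractile apparatus, of which Lmod1 and Des are in the mural marker list. Des is in the marker list of the muscle or satellite cell lineage as well. That lineage came next after mural cells for both Notch3 and Heyl in TNF- synovium.

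Among the other members Notch1 had Btbd7 (0.84), Bag6 (0.77) and Sptan1 (0.76), Notch2 had Bcl6 (0.84), Cers6 (0.77) and Ttc7 (0.77), and Hes1 had Epm2a (0.77), Rhob (0.76) and Pdzd2 (0.74). Jag1 had Kif1c, Sash1 and Kazn (0.81 each), Jag2 had Rassf9 (0.85), Samd12 (0.84) and Slc16a13 (0.83), and Hey1 had Unc45b, Tspan7 and Ccdc85a (0.87 each). Among the members themselves the most alike pairs were Notch4 with Dll4 (0.84), Dll4 with Hey1 (0.81), Jag2 with Dll4 (0.81) and Notch3 with Heyl (0.80).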

How the data were processed

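Single-cell RNA-sequencing libraries had been prepared with the Chromium 3′ kit from lung (dissociated with Collagenase A, elastase and Dispase II) and synovium (type II collagenase), pooled by genotype. The submitters' processing notes name Cell Ranger 7.0.1 and the build mm10, and the authors deposited 1 matrix of UMI counts per library, without normalization. Counting is by the 3′ end, so a count of a gene does not tell its isoforms, and different dissociation enzymes mean that lung and synovium levels were set side by side without a ratio.

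Cells with 200 to 5000 genes and at most 20% mitochondrial UMIs were kept. Both libraries of a tissue were clustered together with scanpy 1.11.5 and leidenalg 0.10.2 (2000 variable genes, 30 principal components, 20 neighbours, resolution 0.8), without the 10 members and the 52 other pathway genes. A cluster was named from marker lists where at least 5 markers of a lineage were at least 2-fold higher and in at least 10% of its cells. Doublets were kept, and cells of high Scrublet score were left out in an alternative. UMIs were summed by lineage and library and given as CPM with exact Poisson intervals. Ratios between genotypes have exact conditional binomial intervals and shares of cells have Clopper-Pearson intervals, all at the 95% level. With 1 library a group no test was made, and 3 UMIs served as the limit for a count of 0. A ratio needed 20 UMIs over both libraries and passed at 2-fold. Scripts were tested on simulated data. Python 3.11.15, numpy 2.4.6, scipy 1.17.1, pandas 2.3.3 and matplotlib 3.10.9 were used.

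All 10 members were named, and of the other pathway genes up to 4 per comparison with at least 50 UMIs and the largest ratio past 2-fold, in endothelium, mural cells, fibroblasts and macrophages or monocytes. For likeness, the 3 genes with the highest correlation were named. The members and lists were chosen with earlier results of these data known. The list of immediate-early genes, the ETS motif, the thresholds for naming clusters and the clusters singled out were chosen after values were seen.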

Additional observations from a re-analysis of the deposited data

Results flagged for a closer look

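For 6 pairs of values the ratio of TNF+ to TNF- stood on opposite sides in synovium and lung, in the same lineage, and the difference between the tissues was not tested, since each tissue has 1 library per genotype. In endothelium the log2 ratio of Hey1 was 0.74 in synovium and -2.11 in lung, that of Jag2 was -0.90 and 0.72, that of Notch1 was 0.23 and -0.39, and that of Hes1 was 0.27 and -0.41. All 4 kept their synovial side without the endothelial cluster that carried mural markers. In macrophages or monocytes the log2 ratio of Notch2 was -0.42 in synovium and 0.35 in lung. In T cells that of Hes1 was -2.48 in synovium, on 19 and 2 UMIs, and 0.80 in lung, on 40 and 108 UMIs.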

How the results depend on the processing

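No paired analysis was possible because each group is 1 library, and for the same reason no library could be left out. Every count was recomputed under up to 19 settings, and 154 of 163 values stayed within 1.5 times. These values are counts and do not describe the ratios themselves. Of 101 ratios, 57 stayed inside their counting interval with UMIs per cell and 76 with no filter on cells. With each library clustered by itself 58 of 82 did, and under the stricter filter 88 of 95 did. The number of member ratios past 2-fold was 15 in the lung, and it was 31 of 75 with no filter on cells, 25 of 55 with each library clustered by itself, 25 with UMIs per cell in place of CPM, 4 of 35 with at least 100 UMIs and 29 at 1.5-fold. In the synovium it was 12, and 22 with UMIs per cell, 6 of 32 with at least 100 UMIs and 23 at 1.5-fold. No share over all genes is given beside the counts of these alternative settings. They therefore do not tell whether the members stood apart from other genes. Members with over 50% of their UMIs in 1 lineage of TNF+ lung numbered 8, and 4 with each library clustered by itself. Ratios that turned were Notch4 in synovial dendritic cells (0.050, no filter on cells), Notch4 in lung T cells (-1.55, no filter, and -0.62, own clustering), Notch3 in synovial dendritic cells (0.12, resolution 1.6), Jag2 in synovial fibroblasts (0.66, mean over cells) and Notch3 in synovial fibroblasts (-0.87, clusters of 1 library left out). Ratios that no longer passed included Notch3 in lung mural cells (-0.92 with no filter, -0.62 at resolution 0.4), Notch3 in synovial fibroblasts under the stricter filter (0.10), Hes1 in synovial macrophages or monocytes with clusters of 1 library left out (-0.02), Hes1 in synovial dendritic cells with no filter (-0.39), Notch1 in lung macrophages or monocytes (-0.47, own clustering, and -0.71, clusters of 1 library left out) and Notch1 in lung dendritic cells with high Scrublet scores removed (-0.30). The cause was not tested. Of the 27 ratios past 2-fold, 14 passed in every setting that gave a value, among them Notch3 in synovial endothelium (1.04 to 3.95, 17 settings), Jag1 in synovial macrophages or monocytes (2.46 to 2.89, 17 settings), Hey1 in lung endothelium (-2.36 to -1.18, 16 settings), Hes1 in lung dendritic cells (-3.17 to -2.08, 16 settings) and Notch1 in synovial dendritic cells (-3.19 to -1.74, 16 settings). Where fewer than 17 settings are given, a setting without a value says nothing about the ratio. Some settings could not undo a pass, such as the 1.5-fold limit or a setting that changed only the other tissue. The number of settings is therefore no measure of support, and no share over all genes is given beside the 14. In lung endothelium genotype and cluster cannot be told apart, and passing in 16 settings does not part them for Hey1. Chosen after seeing the data were the settings that counted the unnamed shallow lung cluster as endothelium (17 lung ratios passed), left out the synovial endothelial cluster with mural genes (11 synovial), kept cells of at least 1000 UMIs (12 of 46 lung) and left out shared barcodes (16 lung). Depth limits, among others, the TNF+ mural cells and fibroblasts of the lung.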
